A study of Mus musculus with 6 samples.

Results

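The receptors described here are 9 mouse genes for G protein-coupled receptors that steer leukocytes towards chemical signals: the chemokine receptor genes Ccr1, Ccr2, Ccr3, Cx3cr1 and Cxcr4, the formyl peptide receptor genes Fpr1 and Fpr2, and the complement fragment receptor genes C5ar1 and C3ar1. They were chosen by name, with earlier results of these data known. Each was read from a probe set annotated to that symbol alone, and such a probe set was found for 8 of the 9. Fpr1 had none in the annotation used here and was not analysed here. The 8 measured receptors are among 22180 genes tested on 6 arrays.

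The arrays held RNA of Raw 264.7 cells, a mouse line of monocytes and macrophages. One group of 3 arrays was labelled IL-33, an IL-1 family cytokine added at 50 ng/ml, and the other group of 3 was labelled PBS, with no cytokine. All 6 cultures were of the same line, had been starved and were kept in medium with 2% serum, after growth in 10% serum. The sources used here do not give how long the treatment lasted. Nothing says that replicates were grown separately, so the p-values cover only the spread of these samples, and that spread may be technical.

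Chemoattractant receptors sit in the plasma membrane and signal mainly through Gi proteins, whose subunits drive calcium release, phosphoinositide 3-kinase gamma and the Rac-dependent movement of the cell edge. Arrestins and RGS proteins then end the signal. In macrophages and monocytes these receptors read chemokines from inflamed tissue, formylated peptides of bacteria and mitochondria, and the C3a and C5a fragments that complement activation releases.

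Each direction below follows the titles of the samples. The names given to the arrays in the descriptions run against them, with IL for the PBS arrays and P for the IL-33 arrays. If the titles were the wrong ones, all signs would be reversed. No 2 arrays held identical values, and across genes the correlation was 0.9972 to 0.9980 between arrays of one label and 0.9967 to 0.9971 between labels. All 10 macrophage markers were measured, with log2 values of 6.40 to 12.92, and 9 of the 10 had a mean above the 75th percentile of all genes. None of the 10 passed an adjusted p of 0.05 (limma), against 0.591% of all genes. Their summed linear values did not overlap, at 38950 to 39828 in the arrays labelled IL-33 and 40201 to 40598 in those labelled PBS. The smallest p among them belonged to Adgre1, the gene of the surface protein F4/80, which differed by -0.29 on the log2 scale at an adjusted p of 0.114 (limma). Means above the median of all genes were found for 1 of 8 neutrophil markers, 1 of 8 mast cell and basophil markers and 2 of 7 lymphocyte markers. One gene of each of these other lists passed the test, against the same 0.591% of all genes. These were the neutrophil collagenase Mmp8 (log2 difference of -0.95), the histamine-forming enzyme Hdc (0.77) and the IL-7 receptor chain Il7r (-0.56). Summed on the linear scale, neutrophil markers gave 245.4 to 265.9 in the arrays labelled IL-33 and 292.6 to 334.5 in those labelled PBS, and without Mmp8 the sums overlapped, at 178.4 to 190.2 with IL-33 and 181.6 to 182.3 with PBS. Mast cell and basophil markers gave 258.5 to 273.3 in the arrays labelled IL-33 and 197.6 to 221.9 in those labelled PBS, and without Hdc they overlapped, at 125.2 to 135.1 with IL-33 and 124.8 to 137.5 with PBS. Lymphocyte markers gave 2252 to 2661 in the arrays labelled IL-33 and 3429 to 3479 in those labelled PBS, and without Il7r they overlapped, at 245.5 to 289.1 with IL-33 and 268.7 to 294.2 with PBS. The median log2 difference was -0.03 for the macrophage list and -0.04 for the lymphocyte list, against -0.01 for all genes. It was -0.01 for the neutrophil list and -0.01 for the mast cell and basophil list. The part of these markers in the receptor results was not tested.

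Fpr2 and Ccr1 had the largest differences of the 8 measured receptors, in opposite directions, and their upstream sequences are shown because these are the receptor genes that the results turn on. Each run is the 250 bases before the start site in the RefSeq promoter table of build GRCm38.p6, read 5′ to 3′ on the gene's own strand. Fpr2 is on the plus strand at chr17:17887574-17887823 and Ccr1 on the minus strand at chr9:123968693-123968942. Capitals mark GAGGAA or its reverse complement, the core that the macrophage transcription factor PU.1 recognises.
Fpr2: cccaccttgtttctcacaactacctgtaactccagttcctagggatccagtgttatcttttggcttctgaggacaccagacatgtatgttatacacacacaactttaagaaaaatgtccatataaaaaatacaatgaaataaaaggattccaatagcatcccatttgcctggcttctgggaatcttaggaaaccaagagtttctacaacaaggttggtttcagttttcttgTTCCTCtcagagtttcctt
Ccr1: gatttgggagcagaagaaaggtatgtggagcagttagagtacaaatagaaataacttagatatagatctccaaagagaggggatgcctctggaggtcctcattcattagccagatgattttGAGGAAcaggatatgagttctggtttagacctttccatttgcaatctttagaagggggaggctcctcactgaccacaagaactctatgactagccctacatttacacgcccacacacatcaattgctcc

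The match began 19 bases before the start site of Fpr2, on the reverse strand, and 129 bases before that of Ccr1, on the forward strand. All 9 receptor genes had a window in the table, each of 300 bases with 50 of them after the start site. On either strand GAGGAA was in the windows of 3 of the 9, those of Fpr2, Ccr1 and Ccr3, against 28.3% of 32851 windows of that length. The AP-1 motif TGANTCA was in the windows of 2, Ccr3 and C3ar1, against 7.81% of windows. The interferon element GAAANNGAAA was in 0 of the 9, against 3.44% of windows. The matches do not overlap one another, and a match in a window is a description of its letters only.

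The comparison asked how the expression of these receptors differed with and without IL-33. Fpr2 was higher in the arrays labelled IL-33 and Ccr1 was lower there, each by about the same size on the log2 scale, while the differences of the other 6 lay between -0.25 and 0.14. None of the 8 passed an adjusted p of 0.05 over all genes (limma, Benjamini-Hochberg), against 0.591% of the 22180 genes, of which 0.275% rose and 0.316% fell. At an unadjusted p under 0.05 there were 3 of the 8, Fpr2, Ccr1 and Cx3cr1, against 13.2% of all genes. With a prior variance that follows intensity and is robust to outliers, Fpr2 and Ccr1 passed, against 4.51% of all genes. The median log2 difference of the 8 receptors was -0.10, with 3 above 0 and 5 below, and that of all genes was -0.01. An exact two-sided permutation test of 3 against 3 arrays cannot give a p below 0.1, so single receptors were read from the fit over all genes. The arrays measured RNA of whole cultures, so fewer cells with a transcript and less of it per cell cannot be told apart.

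**Figure D1:**
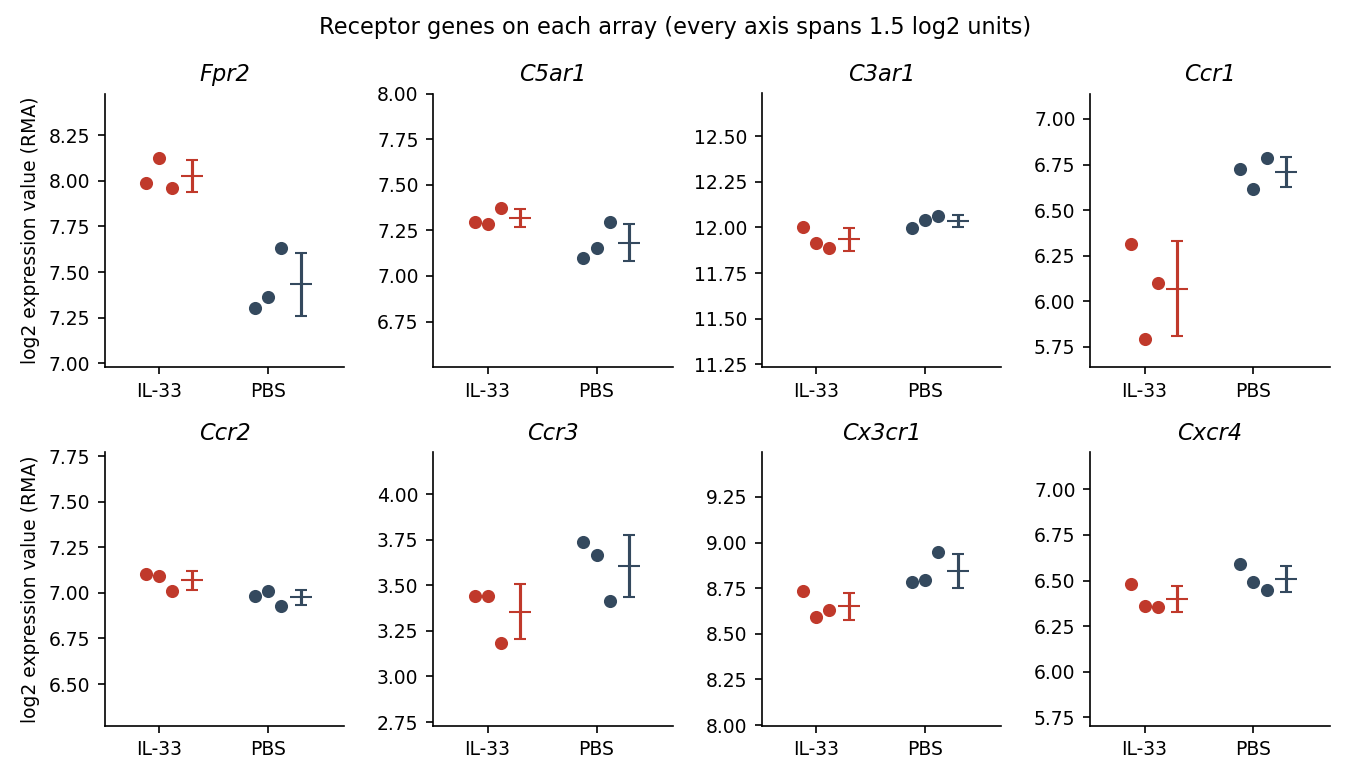
Log2 expression values (vertical axis, RMA) of the 8 measured receptor genes on the 3 arrays labelled IL-33 (red, replicates 1 to 3 from left to right) and the 3 labelled PBS (dark blue), with the mean and SD of each group beside its points. The points of the groups are apart for Fpr2, Ccr1 and Cx3cr1, and each axis spans 1.5 log2 units around its own gene, so levels of different genes are not to be compared.

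Fpr2 encodes a receptor for formylated peptides that also binds the anti-inflammatory protein annexin A1 and serum amyloid A. Its log2 values were 7.99, 8.12 and 7.96 in the arrays labelled IL-33, against 7.30, 7.36 and 7.63 in those labelled PBS. The groups did not overlap, and the lowest array labelled IL-33 lay 0.33 above the highest labelled PBS. The mean was 8.03 ± 0.09 in the IL-33 group and 7.43 ± 0.18 in the PBS group (SD, n = 3 each), a difference of 0.59 ± 0.10 (SE) with a 95% interval of 0.37 to 0.82, or 1.51-fold. Its adjusted p was 0.0593 (limma), 173rd by p among all genes, and it did not pass. It passed with array weights at an adjusted p of 0.0453, among genes whose mean was not below the median gene at 0.0133 and with the trended and robust prior variance at 0.00195. In the other settings that kept all arrays Fpr2 did not pass, at an adjusted p of 0.0596 to 0.203 (limma). Leaving out any 1 array gave 0.0655 to 0.212.

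Ccr1 encodes a receptor for several CC chemokines that draws monocytes and other myeloid cells into tissue. Its log2 values were 6.31, 5.79 and 6.10 in the arrays labelled IL-33, against 6.72, 6.62 and 6.78 in those labelled PBS. The groups did not overlap, with a gap of 0.31, and the IL-33 group spread further, with replicate 2 the lowest. The mean was 6.07 ± 0.26 in the IL-33 group and 6.71 ± 0.08 in the PBS group (SD, n = 3 each). The difference was -0.64 ± 0.13 (log2, SE), with a 95% interval of -0.94 to -0.34 and a size of 1.56-fold, and the adjusted p was 0.101 (limma). It passed among genes whose mean was not below the median gene at an adjusted p of 0.0270 and with the trended and robust prior variance at 0.00870. In the other settings that kept all arrays Ccr1 did not pass, at an adjusted p of 0.0722 to 0.276 (limma). With any 1 array left out the adjusted p was 0.0690 to 0.298 and the difference -0.76 to -0.50.

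Cx3cr1 encodes the receptor through which fractalkine on vessel walls and neurons acts on monocytes and microglia. Its log2 values were 8.73, 8.59 and 8.63 in the arrays labelled IL-33, against 8.79, 8.79 and 8.95 in those labelled PBS. The gap between the groups was 0.05, which is less than the SD of either group (0.07 with IL-33 and 0.09 with PBS, n = 3 each). The difference was -0.19 ± 0.07 (log2, SE) with an adjusted p of 0.300 (limma). Groups without overlap were found for these 3 of the 8 receptors, against 20.3% of all genes. Of the 3, the IL-33 group was the higher one for Fpr2, as in 10.3% of genes, and the lower one for Ccr1 and Cx3cr1, as in 10.1% of genes.

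Ccr2 encodes the main receptor for the monocyte attractant CCL2 and brings monocytes out of the bone marrow. Its log2 values were 7.11, 7.09 and 7.01 in the arrays labelled IL-33, against 6.98, 7.01 and 6.93 in those labelled PBS, and the groups overlapped. The difference was 0.09 ± 0.05 (SE), with a 95% interval of -0.03 to 0.22 and an adjusted p of 0.519 (limma). Ccr3, best known as the eotaxin receptor of eosinophils, had log2 values of 3.44, 3.44 and 3.18 in the arrays labelled IL-33, against 3.74, 3.66 and 3.42 in those labelled PBS. Its groups overlapped through PBS replicate 3, the difference was -0.25 ± 0.11 (SE) with an adjusted p of 0.389 (limma), and its mean lay above that of only 9.2% of genes, where RMA compresses differences. Cxcr4, the receptor for CXCL12 that retains leukocytes in the bone marrow, had log2 values of 6.48, 6.36 and 6.35 in the arrays labelled IL-33, against 6.59, 6.49 and 6.45 in those labelled PBS. The groups overlapped, with a difference of -0.11 ± 0.06 (SE), a 95% interval of -0.26 to 0.04 and an adjusted p of 0.515 (limma).

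C5ar1 encodes the receptor through which C5a activates and attracts myeloid cells. Its log2 values were 7.29, 7.29 and 7.37 in the arrays labelled IL-33, against 7.10, 7.15 and 7.29 in those labelled PBS. The highest PBS array reached the lower end of the IL-33 group, and the difference was 0.14 ± 0.07 (SE) with a 95% interval of -0.02 to 0.29 and an adjusted p of 0.439 (limma). C3ar1, the receptor for C3a, had log2 values of 12.004, 11.916 and 11.885 in the arrays labelled IL-33, against 11.998, 12.039 and 12.062 in those labelled PBS. The groups overlapped through IL-33 replicate 1, and the difference was -0.10 ± 0.05 (SE) with a 95% interval of -0.23 to 0.03 and an adjusted p of 0.499 (limma). Its mean lay above that of 98.9% of genes, near the top of the scale, where RMA compresses differences. For Ccr2, Ccr3, Cxcr4, C5ar1 and C3ar1 the intervals held 0, which does not show that the groups were alike.

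**Figure D2:**
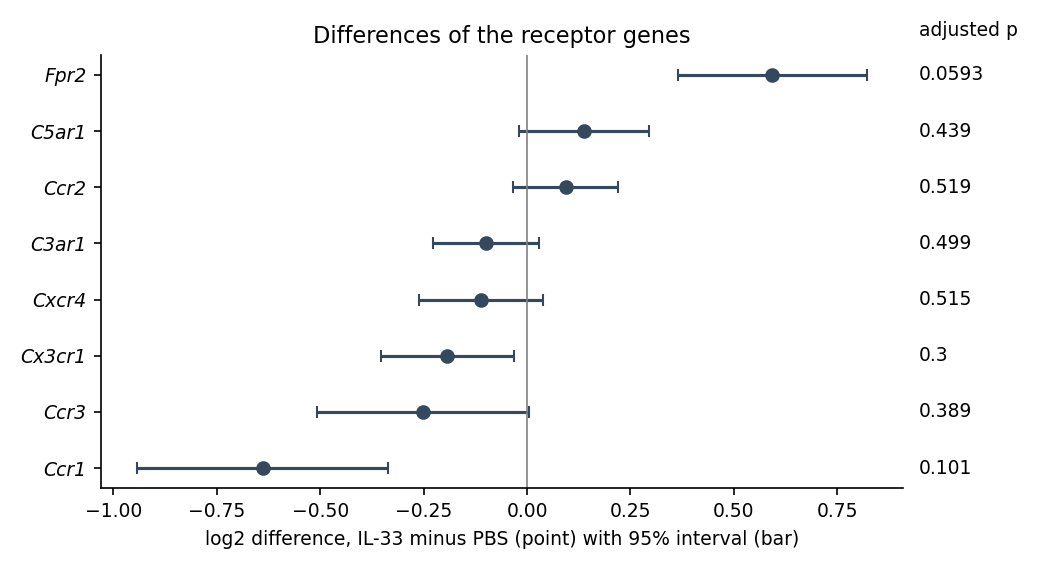
Log2 differences, IL-33 minus PBS (horizontal axis), of the 8 measured receptor genes, with points for the limma estimates, bars for their 95% intervals and the adjusted p over all 22180 genes at the right. The intervals of Fpr2 (0.37 to 0.82), Ccr1 (-0.94 to -0.34) and Cx3cr1 (-0.35 to -0.03) lie to one side of 0, and no adjusted p is below 0.05.

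The sign of the difference of each of the 8 receptors was the same in every alternative run that held it. Only further quantile normalization, centring, array weights and leaving out an array could change a receptor's difference. The other settings changed the variance or the set tested, so the sign was fixed there. The 6 receptors other than Fpr2 and Ccr1 did not pass in any alternative run, with adjusted p of at least 0.101 (limma).

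**Figure D3:**
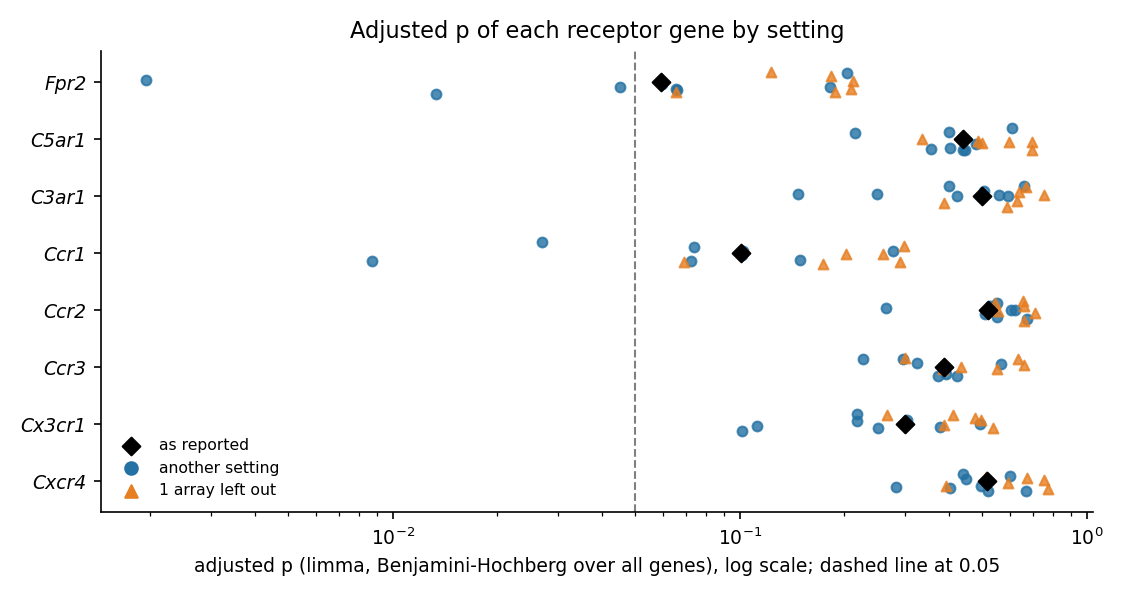
Adjusted p (horizontal axis, log scale) of each of the 8 measured receptor genes as reported (black diamonds), under other settings (blue circles) and with 1 array left out (orange triangles), with a dashed line at 0.05. Fpr2 lies left of the line in 3 of 8 other settings and Ccr1 in 2 of 8, and neither does with an array left out.

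Several of these genes lie in clusters of related receptors, which the choice of genes did not use. In the RefSeq gene order of chromosome 9, Ccr1, Ccr1l1, Ccr3 and Ccr2 follow one another. Their log2 differences were -0.64 for Ccr1, -0.09 for the Ccr1-like gene Ccr1l1, -0.25 for Ccr3 and 0.09 for Ccr2. The neighbours Xcr1 and Cxcr6, receptors for XCL1 and CXCL16, differed by -0.12 and 0.09. On chromosome 17, Fpr2 lies between Fpr1 and Fpr3, neither of which was analysed here, and the gene after Fpr3, Fpr-rs4, differed by -0.03 with an adjusted p of 0.951 (limma). On chromosome 7, C5ar1 lies beside C5ar2, which encodes a second C5a receptor and differed by -0.03 ± 0.12 (log2, SE). Receptor genes of 1 cluster thus had differences of both signs, and no neighbour named here passed. Close paralogs can share probe sequence, and the probe sequences were not analysed here.

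Of 18 other measured chemokine receptor genes 1 rose, Ccrl2, and 17 did not pass, against 0.275% of all genes that rose. Their median difference was 0.00 (log2), against -0.01 over all genes. Ccrl2 encodes an atypical receptor that binds the attractant chemerin and presents it to other cells. Its log2 values were 8.72, 8.72 and 8.66 in the arrays labelled IL-33, against 8.24, 8.29 and 8.30 in those labelled PBS. The groups did not overlap, with an SD of 0.04 in the IL-33 group and 0.03 in the PBS group (n = 3 each). The difference was 0.42 ± 0.05 (SE), or 1.34-fold, with an adjusted p of 0.0227 (limma). With any 1 of the 6 arrays left out it did not pass, at an adjusted p of 0.0663 to 0.132 (limma).

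Among 10 other measured receptors for attractants, among them those for leukotriene B4, chemerin and oxysterols, none passed and the median log2 difference was -0.02, while 4 had an unadjusted p under 0.05, as did 13.2% of all genes. The list gave 1 or 2 that passed in 4 alternatives other than leaving out an array. Among genes whose mean was not below the median gene, 2 of 5 passed, against 760 of 11090 genes. With centring on the 75th percentile 2 of 10 passed, against 159 of 22180 genes. With the trended and robust prior variance 1 passed, against 1000 of 22180 genes, and with array weights 1, against 193. The smallest p belonged to Ptafr, the receptor for platelet-activating factor, with log2 values of 9.64, 9.36 and 9.32 in the arrays labelled IL-33, against 10.05, 9.95 and 10.00 in those labelled PBS. The groups did not overlap, and its difference of -0.56 ± 0.09 (SE) had an adjusted p of 0.0593 (limma), which was 0.0226 without IL-33 replicate 1 and 0.152 to 0.223 without any other single array. Fpr-rs3, a formyl peptide receptor relative known from vomeronasal neurons, had log2 values of 4.57, 4.45 and 4.61 in the arrays labelled IL-33, against 4.90, 4.91 and 4.85 in those labelled PBS. Its difference of -0.34 ± 0.06 (SE) had an adjusted p of 0.0691 (limma) and was opposite in sign to that of Fpr2. The contrast between the genes was not tested. The mean of Fpr-rs3 lay above that of only 31.2% of genes, and there are no detection calls.

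Of 16 measured ligands of the receptors, Ccl6 and Ccl7 fell and 14 did not pass, against 0.316% of all genes that fell. The median difference of the 16 was -0.06 (log2). Ccl6, a mouse chemokine that acts on Ccr1, had log2 values of 6.633, 6.593 and 6.665 in the arrays labelled IL-33, against 7.860, 7.999 and 7.812 in those labelled PBS. The groups lay 1.15 apart, and the difference was -1.26 ± 0.06 (SE), with an adjusted p of 0.00285 (limma) that stayed below 0.05 with any 1 array left out. Ccl7, a ligand of Ccr1, Ccr2 and Ccr3, had log2 values of 10.74, 10.78 and 10.68 in the arrays labelled IL-33, against 11.21, 11.24 and 11.20 in those labelled PBS. Its groups did not overlap, and the difference was -0.48 ± 0.05 (SE) with an adjusted p of 0.0160 (limma). Ccl7 did not pass without IL-33 replicate 2 or 3 or without PBS replicate 1, 2 or 3, where the adjusted p was 0.0733 to 0.0925, and it was 0.0465 without IL-33 replicate 1.

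Further ligands are named here for the receptors they bind, after their values were seen. Ccl3, Ccl5 and Ccl9, other ligands of Ccr1, differed by 0.02, 0.13 and -0.01 on the log2 scale, and Ccl2, the ligand of Ccr2, by -0.15, where Ccr2 itself differed by 0.09. Cx3cl1, the ligand of Cx3cr1, differed by -0.11 and Cxcl12, that of Cxcr4, by -0.06. Anxa1 and Saa3, which encode the Fpr2 ligands annexin A1 and serum amyloid A3, differed by -0.06 and 0.00, and Hc, which encodes complement C5, by -0.10. None of these 9 passed. Their adjusted p ran from 0.272 for Ccl2 to 0.996 for Saa3 (limma). The means of Ccl2, Ccl3, Ccl5 and Ccl9 lay above those of at least 99.3% of genes, where RMA compresses differences. The mean of Hc lay above that of only 23.2% of genes. Small differences at such levels do not show that the groups were alike. C3, the source of C3a, was not analysed here.

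Of 29 measured genes of receptor signalling and desensitisation 1 rose, Rgs16, and 28 did not pass, against the same 0.275% of all genes that rose. The median difference of the 29 was 0.02 (log2). Rgs16 encodes a GTPase-activating protein that switches off Gi and Gq subunits downstream of these receptors. Its log2 values were 9.69, 9.73 and 9.71 in the arrays labelled IL-33, against 8.87, 9.09 and 9.10 in those labelled PBS. The groups lay 0.59 apart, with PBS replicate 1 the lowest. The difference was 0.69 ± 0.07 (SE), or 1.61-fold, with an adjusted p of 0.0160 (limma). It did not pass without IL-33 replicate 2 or 3 or without PBS replicate 2 or 3, where the adjusted p was 0.0549 to 0.0963. Arrb1, which encodes the arrestin beta-arrestin 1 and was picked for its values, had a difference of -0.24 ± 0.05 (log2, SE) and an adjusted p of 0.118 (limma).

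**Figure D4:**
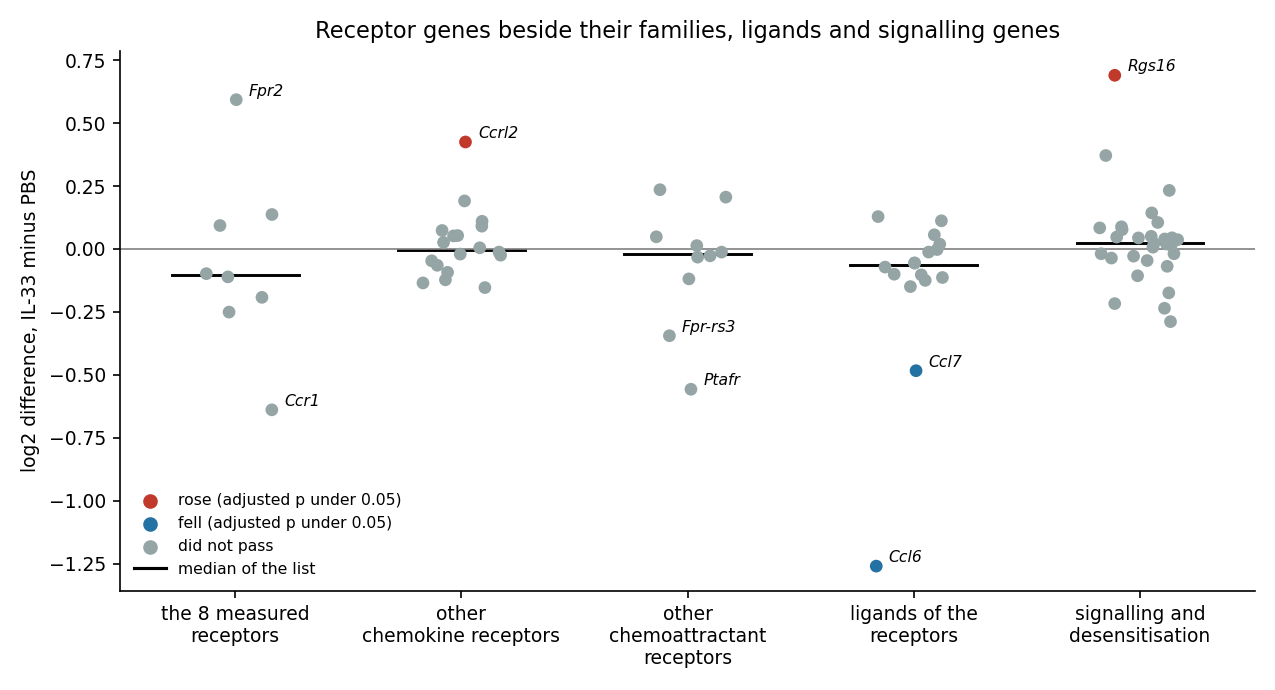
Log2 differences, IL-33 minus PBS (vertical axis), of the 8 measured receptors and of the genes of 4 related lists, with a black line at each median; red points rose, blue points fell and grey points did not pass an adjusted p of 0.05. Ccrl2 and Rgs16 rose and Ccl6 and Ccl7 fell, while Fpr2 at 0.59 and Ccr1 at -0.64 are grey.

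The genes most like Fpr2 and Ccr1 over the 6 arrays were found by the Euclidean distance between log2 values, each gene centred on its own mean, among all genes tested. Nearest to Fpr2 were Alox5, the 5-lipoxygenase that starts leukotriene synthesis, at a distance of 0.21, the cation exchanger gene Slc24a3 at 0.24 and the Golgi-associated Glipr2 at 0.24, against a median of 0.81 over all genes. Their differences were 0.49, 0.49 and 0.71 on the log2 scale, and of the 3 Glipr2 passed, with an adjusted p of 0.0100 (limma). As with Fpr2, PBS replicate 3 was the highest PBS array for all 3. Nearest to Ccr1 were Lancl3, at a distance of 0.13, the lipid droplet gene Hilpda at 0.21 and Havcr2, which encodes the inhibitory receptor TIM-3, at 0.22, against a median of 0.90. Their differences were -0.54, -0.55 and -0.58, with adjusted p of 0.181, 0.116 and 0.0720 (limma), and all 3 shared with Ccr1 the lowest value in IL-33 replicate 2. The 6 arrays fall into 2 groups, so genes with a difference of the same size come out as near. The distance used these same values, so a shared highest or lowest array follows largely from the choice of genes. The distances are a description.

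**Figure D5:**
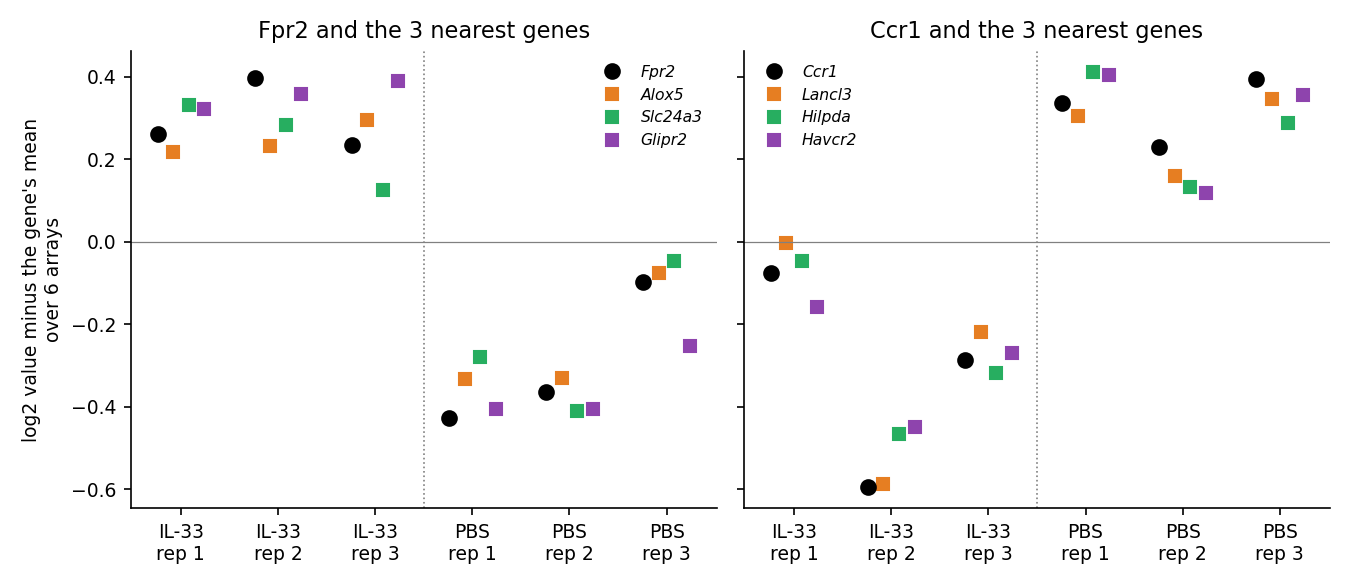
Log2 values minus each gene's mean over the 6 arrays (vertical axis) for Fpr2 and Ccr1 (black circles) and the 3 genes nearest to each (coloured squares), by array (horizontal axis). IL-33 replicate 2 is the lowest array for Ccr1 and its 3 nearest genes, and PBS replicate 3 is the highest PBS array for Fpr2 and its 3 nearest genes. The genes were chosen by distance over these same values, so the shared pattern follows largely from the choice.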

How the data were processed

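Biotin-labelled cDNA was made from total RNA with a whole-transcript kit and read on arrays, per the labels' protocols. The authors deposited log2 values made with RMA, per the submitters' processing notes; the sources used here do not give its version. RMA forces array distributions alike and compresses differences near background and near the top of the scale. There are no detection calls, and the number of arrays limits the precision. Of 41345 probe sets, 23521 carried 1 gene symbol; genes with several were read from the highest mean, giving 22180. The 8 measured receptors had 1 probe set each. No build was named for the array.

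The log2 values were fitted with limma 3.58.1 in R 4.3.3 (group only, no filter, Benjamini-Hochberg over all genes), after a test of the fit on simulated data. Differences are IL-33 minus PBS, and 95% intervals are unadjusted. Apart from ranks among all genes, sums over marker lists and the choice of probe set, no level was set against that of another probe set. Replicate numbers were not taken as pairs: deviations of same-numbered arrays correlated at 0.082, 0.088 and 0.022. Alternatives were filtering, scaling, probe set averaging, a replicate block, other variance settings, all probe sets and leaving out arrays. By rule, the text names all receptors, the genes of each pathway list that passed or else the 2 with the smallest p, and the 3 nearest genes of 2 receptors. Cell type markers, neighbouring genes, further ligands, Arrb1 and Arrb2 were named outside it, after their values were seen. Receptors, lists and rules were chosen with earlier results of these data known. Figures used matplotlib 3.10.9.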

Additional observations from a re-analysis of the deposited data

How the results depend on the processing

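All 8 measured receptors kept the sign of their difference in every alternative run that held them, and Ccl6 passed in every run. Only further quantile normalization, centring, array weights and leaving out an array could change a receptor's difference, so the sign was fixed in the other runs. Of the 8 receptors, 0 passed as reported, 2 (Fpr2 at 0.59 and Ccr1 at -0.64, log2) passed both among genes whose mean was not below the median gene, where fewer genes were tested, and with the trended and robust prior variance, and 1 (Fpr2 at 0.61) passed with array weights. Of all 22180 genes, 131 passed as reported (61 higher, 70 lower). That prior variance gave 1000, array weights 193 and the replicate block 21. With that filter 760 of 11090 genes passed, and 7 of the 8 receptors were among those tested. With all probe sets other than controls 17 of 41155 passed, and 15 to 83 genes did with an array left out. Centring on the 75th percentile gave 57 higher and 102 lower. Among ligands, 2 passed as reported, 1 with the replicate block or all probe sets, 4 with the prior variance, and 1 to 2 without an array. Among other attractant receptors, 0 passed as reported, 2 with the filter or the centring, 1 with the prior variance or array weights, and 0 to 1 without an array. Among other chemokine receptors, 1 passed as reported and 0 with the replicate block, with all probe sets or without any array. Among signalling genes, 1 passed as reported, 4 with the filter, 6 with the prior variance, 0 with the replicate block or all probe sets, and 0 to 1 without an array. The cause was not tested. The replicate block has fewer residual degrees of freedom. IL-33 replicates 1 and 2 correlated best with the PBS array of their own number, at 0.082 and 0.088. IL-33 replicate 3 did so with PBS replicate 2, at 0.059. These correlations are weak and do not settle whether the numbers mark pairs. Ccr3 and Fpr-rs3 fell below the filter and have no value there.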
